A study of Mus musculus with 15 samples.

Results

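The enzymes that build cholesterol and fatty acids, with the proteins that switch their genes on, were examined as 29 genes listed by symbol. Each symbol matched 1 of the 49315 gene IDs in the count tables, and all 29 passed the filter on low counts in each comparison. Polyadenylated RNA had been sequenced from wild-type C57BL/6J primary myoblasts, the proliferating precursors of skeletal muscle fibres, after lipid transfection of a small interfering RNA and 1 day of differentiation. The interfering RNA was directed against Lmod1 (siLmod1) or against Sirt1 (siSirt1), or was a control (siCtrl), and each of these 3 groups held 5 libraries. The submitters' design text gives 5 different primary myoblast cell lines, and the replicate numbers 1, 2, 3, 4 and 7 are taken here as those lines. Lmod1 encodes leiomodin, a nucleator of actin filaments, and Sirt1 a deacetylase that uses NAD as a cofactor. The study asked which early changes of the myogenic programme followed each knockdown.

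Cholesterol is made from acetyl-CoA through mevalonate, isoprenoids, squalene and lanosterol, and fatty acids are made from the same acetyl-CoA. Genes of both routes are switched on by sterol regulatory element binding proteins (SREBPs), which are held in the endoplasmic reticulum by Scap and Insig proteins while sterols are plentiful and are cut free when sterols run low. Muscle cells make their own sterols for membranes, and fusing myoblasts remodel those membranes. SIRT1 is known to deacetylate SREBPs and also ACSS2, the enzyme that turns acetate into acetyl-CoA in the cytosol and nucleus.

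The knockdowns were checked first, in CPM, each count divided by its library's total after scaling by the trimmed mean of M values (TMM). Lmod1 averaged 3.51 ± 1.57 CPM in siLmod1 and 30.6 ± 16.2 CPM in siCtrl (SD, n = 5 each), and its log2 difference was -3.07 with the line as a block (edgeR adjusted p = 2.8e-06). Without the block its adjusted p was 0.0685. Sirt1 averaged 6.21 ± 3.33 CPM in siSirt1 and 26.4 ± 7.04 CPM in siCtrl, and its blocked log2 difference was -2.18 (edgeR adjusted p = 0.0027, and 0.074 without the block). The other gene moved as well with the block, since Sirt1 was at 38.6 ± 10.1 CPM in siLmod1 (edgeR adjusted p = 0.00014) and Lmod1 at 16.6 ± 11.8 CPM in siSirt1 (edgeR adjusted p = 0.027). The last of these was lost without line 1, 4 or 7, while the fall of each targeted gene and the rise of Sirt1 held with each line left out.

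The libraries held 27135398 to 31829009 counts in siLmod1, 21004908 to 27815744 in siSirt1 and 26097889 to 33601761 in siCtrl. Over 15358 genes, the 3 libraries of line 4 stood apart on the first principal component, at 85.1 to 87.1, against -40.3 to 1.18 for the other 12. The siSirt1 library of line 7 stood highest on the second component, at 71.7, against 22.7 in the siLmod1 library and 35.9 in the siCtrl library of that line. On the third component the siSirt1 library of line 1 lay at 31.2, among the line 3 libraries (27.3 to 38.7), while the siLmod1 and siCtrl libraries of line 1 lay at 6.38 and 4.91. Calls in siSirt1 made with the line as a block are therefore also given with each line left out. All 8 muscle markers were detected, with Myf5 at 2.17 to 3.74 CPM in the 3 libraries of line 7. Their summed level was 9344 to 15266 CPM in siLmod1, 6094 to 12554 CPM in siSirt1 and 11370 to 16623 CPM in siCtrl, and the part of this difference in the results was not tested. The sum of 8 adipocyte markers, 2 of which reached 1 CPM, was 1.25 to 9.74 CPM in siLmod1, 3.05 to 8.05 CPM in siSirt1 and 1.60 to 4.63 CPM in siCtrl. Over all libraries the sum of 4 endothelial markers was at most 2.37 CPM, that of 4 leukocyte markers at most 7.63 CPM, that of 4 Schwann cell markers at most 9.36 CPM and that of 6 fibroblast markers at most 52.6 CPM. The sum of 6 mural cell markers, which include the actin gene Acta2, was 2204 to 5681 CPM in siLmod1, 1277 to 4479 CPM in siSirt1 and 2915 to 6334 CPM in siCtrl.

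The promoters of 4 of these genes are shown because they belong to the members that differed most clearly between the knockdowns, a choice made after their values were seen. They are RefSeq windows on build GRCm38.p6, each of 300 bases running from 250 bases before to 50 bases after the transcript start that RefSeq gives, which can differ from the GENCODE gene bounds printed further on, written 5′ to 3′ on the strand of the gene. Capitals mark CCAAT, the CCAAT box bound by NF-Y, and CACNCCAC, the core of a sterol regulatory element, on either strand. The windows are chr2:155517793-155518092 (plus strand) for Acss2, chr13:119690101-119690400 (plus) for Hmgcs1, chr9:42264251-42264550 (minus) for Sc5d and chr11:100527951-100528250 (minus) for Acly.
Acss2: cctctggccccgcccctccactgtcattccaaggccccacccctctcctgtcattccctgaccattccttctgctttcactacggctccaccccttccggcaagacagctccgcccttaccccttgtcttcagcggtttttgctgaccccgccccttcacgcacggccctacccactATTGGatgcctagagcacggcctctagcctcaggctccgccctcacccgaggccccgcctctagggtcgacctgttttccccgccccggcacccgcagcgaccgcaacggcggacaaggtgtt
Hmgcs1: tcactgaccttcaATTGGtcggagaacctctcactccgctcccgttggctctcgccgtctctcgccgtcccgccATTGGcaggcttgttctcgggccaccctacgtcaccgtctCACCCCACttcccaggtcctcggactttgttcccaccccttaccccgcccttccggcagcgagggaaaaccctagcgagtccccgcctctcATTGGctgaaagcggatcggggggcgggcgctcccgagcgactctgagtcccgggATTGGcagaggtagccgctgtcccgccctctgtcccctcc
Sc5d: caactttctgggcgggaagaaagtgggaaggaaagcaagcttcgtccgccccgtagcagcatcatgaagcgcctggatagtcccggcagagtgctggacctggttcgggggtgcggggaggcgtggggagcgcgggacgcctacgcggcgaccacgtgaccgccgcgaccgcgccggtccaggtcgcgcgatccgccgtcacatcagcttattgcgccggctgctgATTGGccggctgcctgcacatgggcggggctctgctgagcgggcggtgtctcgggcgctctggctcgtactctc
Acly: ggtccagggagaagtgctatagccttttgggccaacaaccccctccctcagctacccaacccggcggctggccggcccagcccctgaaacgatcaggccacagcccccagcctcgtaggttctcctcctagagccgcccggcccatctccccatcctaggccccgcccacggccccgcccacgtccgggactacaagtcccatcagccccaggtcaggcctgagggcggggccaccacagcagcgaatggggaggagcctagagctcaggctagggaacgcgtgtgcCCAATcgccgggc
The Hmgcs1 window holds 1 CACNCCAC match, starting at base -136 from the RefSeq start, and 4 CCAAT matches. The other 3 windows hold 1 CCAAT match each and no CACNCCAC match in these letters. GC boxes (GGGCGG on either strand, the site of Sp1) number 5 in the Acss2 window, 3 in Hmgcs1, 4 in Sc5d and 4 in Acly.

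RefSeq windows were found for 23 of the 29 genes, 29 windows in all, and 6 genes (Fdft1, Sqle, Fdps, Stard4, Scd1 and Scd2) had none. CACNCCAC occurred in 3 of the 29 windows (10.3%), those of Hmgcs1, Acat2 and Insig1, against 6.24% of all 32851 windows of that length. CCAAT occurred in 72.4% of the members' windows and 37.4% of all windows, and GGGCGG in 79.3% and 35.7%. The E box CACGTG occurred in 20.7% and 7.15%. None of these 4 strings contains another, both strands were searched, and a match describes letters only.

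Levels between genes were compared in TPM, a library share that divides by transcript length. In siCtrl, Scd2, the desaturase of stearoyl-CoA that is widely expressed in mouse, was highest, at 716 ± 279 TPM (SD, n = 5). Its lowest library, at 362 TPM, was above the highest library of the next gene, Hmgcs1, at 315 TPM. Hmgcs1 averaged 275 ± 30.9 TPM, and Cyp51, Srebf2 and Insig1 followed at 227 ± 42.1, 225 ± 31.9 and 192 ± 52.7 TPM. From Hmgcs1 down, the range of each gene overlapped that of its neighbour in the order. Fasn, the fatty acid synthase, stood at 110.5 ± 23.7 TPM. The lowest means were those of Scd1 (16.9 ± 16.0 TPM), Tm7sf2 (15.5 ± 5.85 TPM), Acss2 (13.4 ± 4.69 TPM) and Acaca (10.4 ± 1.79 TPM). The 2 desaturases thus lay at opposite ends of the order, and the ratio of Scd2 to Scd1 in TPM was 35.7 to 321 in siLmod1, 19.4 to 103 in siSirt1 and 21.0 to 131 in siCtrl.

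**Figure D1:**
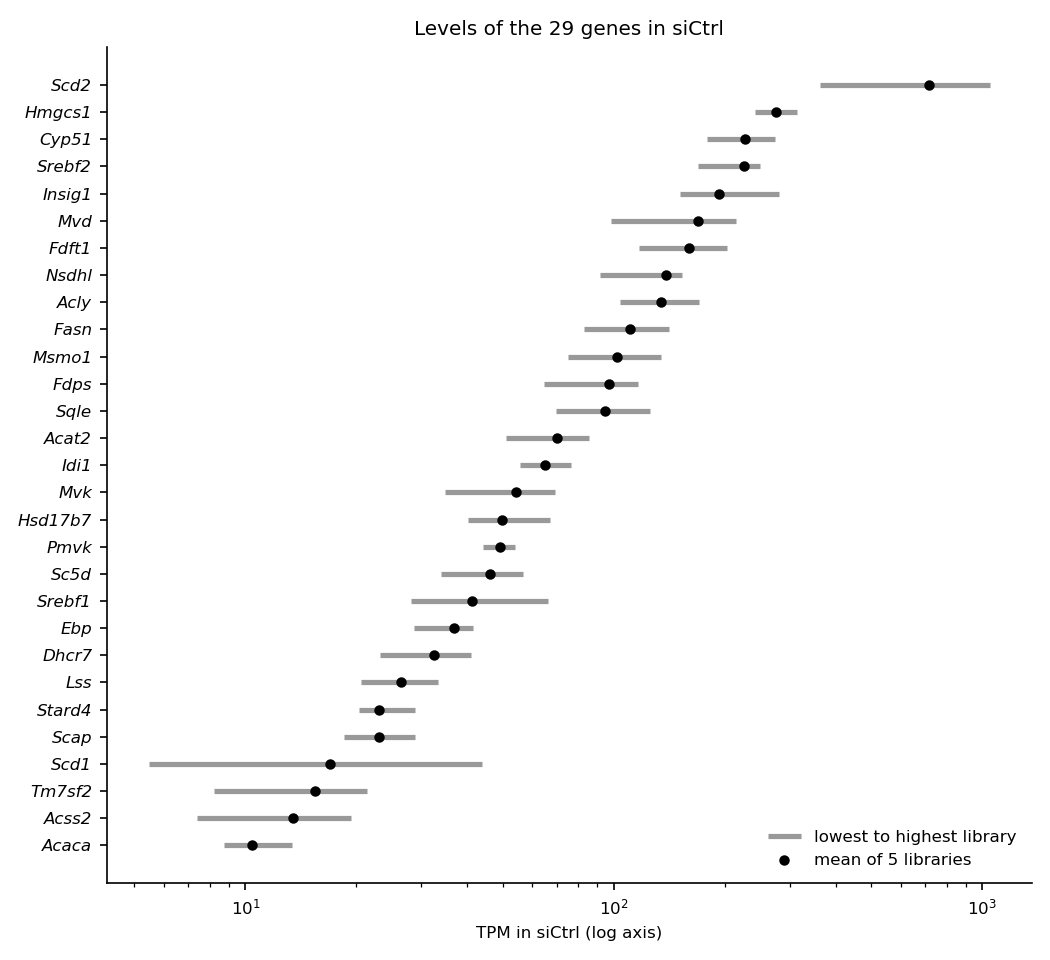
Level of each of the 29 genes in the 5 siCtrl libraries, in TPM on a log axis, ordered by mean. Black points are means and grey bars run from the lowest to the highest library; only Scd2, at 362 to 1048 TPM, is clear of its neighbour.

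Most of the variation in these genes lay between lines. Of the sum of squares of log2 CPM over the 15 libraries, the members' median was 74.1% between lines, 12.7% between siRNA groups and 9.86% in the rest, against medians of 58.5%, 15% and 17.9% over 15358 genes. In 24 of the 29 genes more of it lay between lines than in the other parts together. Tm7sf2 was at the upper end, with 90.3% between lines and 4.43% between groups. Acss2 had the largest share between groups of the 29, at 59.2%, followed by Sc5d at 42.2%, Pmvk at 40.9% and Acly at 40.6%. In 12 genes line 7 was lowest in all 3 groups, and line 4 held the highest value of 15 genes in siLmod1, 15 in siSirt1 and 14 in siCtrl. For 27 of the 29 genes the range over the 5 siCtrl lines exceeded the largest blocked difference between groups.

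**Figure D2:**
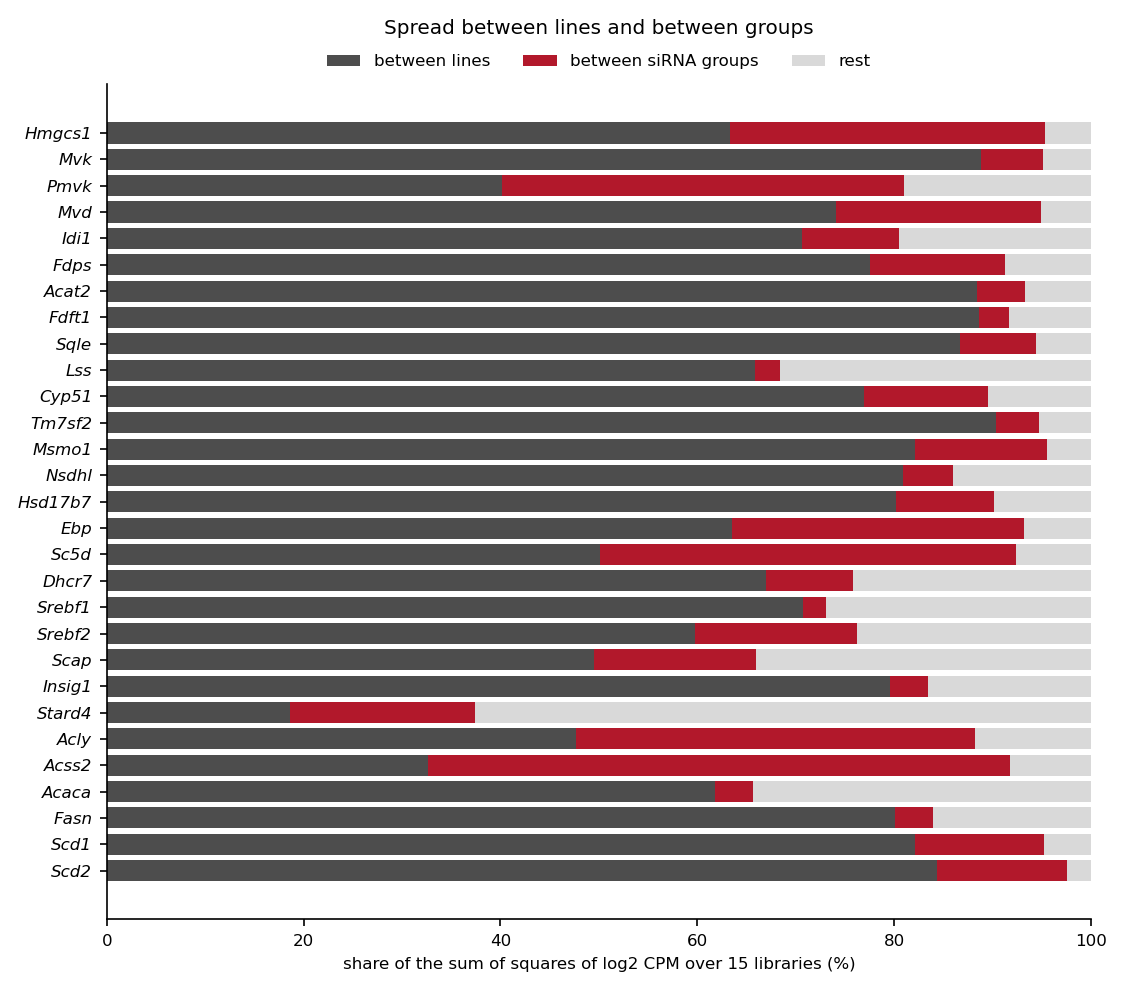
Share of the sum of squares of log2 CPM over 15 libraries that lies between the 5 lines, between the 3 siRNA groups and in the rest, in percent, for each gene. Dark bars dominate in most rows; the red share is widest for Acss2, at 59.2%.

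Knockdown of Lmod1 was set against the control RNA. Acss2 and 4 enzymes of sterol synthesis (Hmgcs1, Mvd, Sqle and Msmo1) rose, and Acly and the desaturase Scd1 fell, when the line was a block in the fit. Thus 5 members (17.2%) were called higher and 2 (6.90%) lower, at an edgeR quasi-likelihood adjusted p under 0.05 over 15022 genes. Over all genes tested the same fit called 12.9% higher and 16.5% lower, so the members' share of higher calls was near the background. Higher in all 5 lines were 5 members (Hmgcs1, Mvd, Sqle, Insig1 and Acss2), against 17.4% of all genes, and lower in all 5 were Acly and Scd1, against 18.7% of all genes. The median log2 difference with the block was 0.01 over the members and -0.01 over all genes. Without the block edgeR called 0 members and 0.113% of all genes, and DESeq2 called 0 members too. In that edgeR fit 2 members had an unadjusted p under 0.05, as did 1351 of the 15022 genes. Calls of Sqle, Acss2, Acly and Scd1 held with each line left out in turn, Msmo1 lost its call without line 1, which left 2 higher calls, Hmgcs1 lost it without line 1, 2 or 4, and Mvd without line 1, 3 or 4. With the line as a block in a fit of all 15 libraries, Acss2 was the 1 member called higher, and Acly and Scd1 were still called lower. The share of all genes called was not counted in that fit or in the fits with a line left out.

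Knockdown of Sirt1 was set against the same siCtrl libraries. Acss2, Sc5d and Scd2 fell with the line as a block, and no member rose. These are 3 members lower (10.3%) and 0 higher, against 4.35% and 2.72% of the 14912 genes tested (edgeR, adjusted p under 0.05). In the same edgeR fit 10 members had an unadjusted p under 0.05, as did 3755 of the 14912 genes. A total of 9 members were lower in all 5 lines (Hmgcs1, Mvk, Pmvk, Mvd, Fdps, Ebp, Sc5d, Acss2 and Scd2), against 14.5% of all genes, and 0 were higher in all 5, against 10.6%. Of the 18 enzymes of sterol synthesis from Acat2 to Dhcr7, 15 had a negative blocked difference, with a median of -0.22, while the median over all genes was 0.01. Without the block edgeR called 0 members and 0.127% of all genes, and DESeq2 called 0 members. In that edgeR fit 1 member had an unadjusted p under 0.05, as did 1440 of the 14912 genes. The blocked calls rarely held with a line left out. Of the 3, 0 remained without line 1, 3 or 7, and 1 without line 2 or without line 4. Their log2 differences ran from -0.579 to -0.425 (Sc5d), -0.791 to -0.582 (Acss2) and -0.491 to -0.432 (Scd2) in those smaller fits. The share of all genes called in those fits was not counted. With all 15 libraries and the block, 7 members were called lower, the 3 above with Hmgcs1, Pmvk, Mvd and Ebp. The share of all genes called in that larger fit was not counted, so these 7 have no background beside them.

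The knockdown of Sirt1 was last set directly against that of Lmod1, which uses no control library. With the block, Acss2, Hmgcs1, Mvd, Ebp, Sc5d and Scd2 were lower in siSirt1 and Acly was higher. These 6 lower calls (20.7% of the members) and 1 higher call (3.45%) stand beside 8.43% and 7.43% of the 14998 genes tested (edgeR, adjusted p under 0.05). In all 5 lines 8 members were lower (the 6 just named with Fdps and Msmo1), against 16.6% of all genes, and Acly and Scd1 were higher, against 13.8%. The median blocked log2 difference was -0.16 over the members and 0.005 over all genes. Acss2 was the 1 member whose 2 groups of libraries did not overlap, and the share of all genes without overlap was not counted. Without the block edgeR called 0 members and 1.53% of all genes, and DESeq2 called 1 member, Acss2. In that edgeR fit 4 members had an unadjusted p under 0.05, as did 2475 of the 14998 genes. Without line 1, 3 members were called lower with the block, as without line 3 or line 4, and without line 7, 5 were. Hmgcs1, Sc5d, Acss2 and Acly kept their calls with each line left out. For these fits and for DESeq2 the share of all genes called was not counted.

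**Figure D3:**
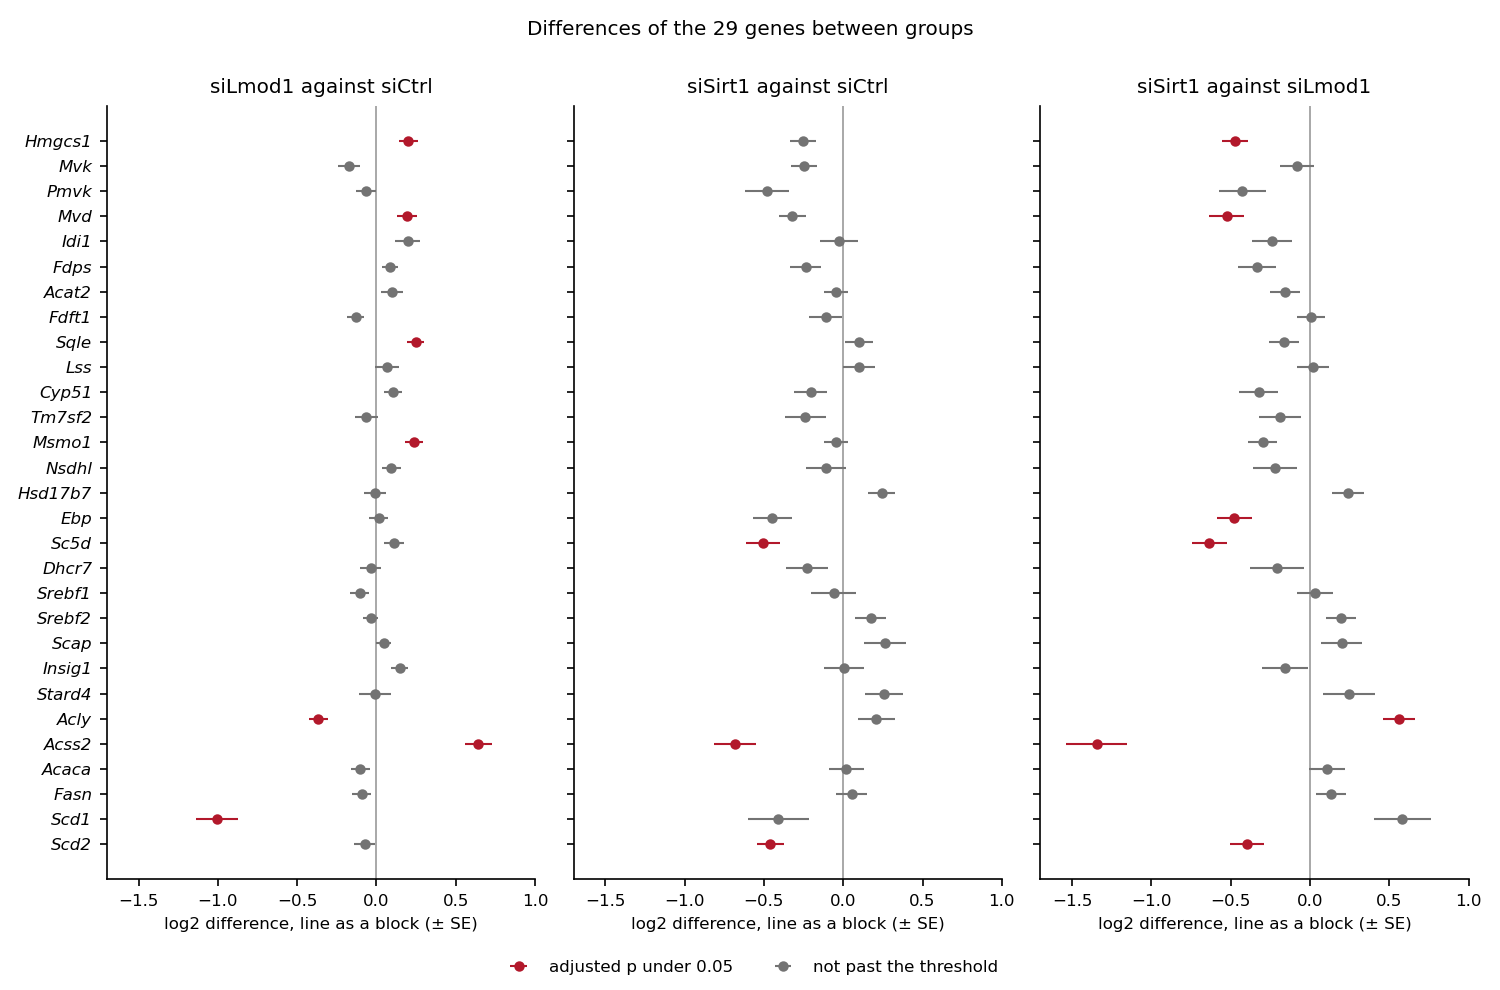
Log2 difference of each gene in the 3 comparisons from the edgeR fit with the line as a block, with bars of 1 SE, as the group named first minus the other. Red points passed an adjusted p of 0.05 over all genes: 7 for siLmod1 against siCtrl, 3 for siSirt1 against siCtrl and 7 for siSirt1 against siLmod1.

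The following values are per library, in the order of lines 1, 2, 3, 4 and 7, and each adjusted p is edgeR's over all genes with the line as a block unless stated. Acss2, the acetyl-CoA synthetase of the cytosol and nucleus, lies on chromosome 2 (155517948 to 155585724, plus strand, mm10). It was at 87.8, 58.2, 82.3, 66.0 and 48.5 CPM in siLmod1, at 24.2, 38.3, 42.5, 22.1 and 13.7 CPM in siSirt1 and at 53.3, 47.0, 58.9, 38.5 and 24.5 CPM in siCtrl. In every line siLmod1 was highest, siCtrl between and siSirt1 lowest, and the ranges of siLmod1 and siSirt1 did not overlap. The mean in siLmod1 was 1.54-fold that in siCtrl (log2 0.64 ± 0.09 SE, adjusted p = 0.00051). The mean in siSirt1 was 1.58-fold lower than in siCtrl (log2 -0.68 ± 0.13 SE, adjusted p = 0.024) and lost its call without line 1, 3, 4 or 7, where the adjusted p reached 0.063. Against siLmod1, the siSirt1 mean was 2.44-fold lower (log2 -1.34 ± 0.19 SE, adjusted p = 0.0053). For this last contrast the adjusted p without the block was 0.069, and DESeq2 without a block gave 0.0044. Acss2 shares 3.89% of its exon bases with Gss, 3.30% with Acss2os and 1.94% with Ggt7, all on the opposite strand, and the library kit keeps no strand.

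Acly, the ATP citrate lyase that makes acetyl-CoA from citrate, lies on chromosome 11 (100476353 to 100528000, minus strand). It was at 208, 184, 189, 203 and 124 CPM in siLmod1, at 275, 225, 269.8, 377 and 189 CPM in siSirt1 and at 247, 227, 270.0, 233 and 179.6 CPM in siCtrl. The siLmod1 library was the lowest of the 3 in every line, though the ranges of the groups overlapped. Acly fell in siLmod1 by 0.37 ± 0.06 (log2, SE; adjusted p = 0.0013) against siCtrl, and was higher in siSirt1 than in siLmod1 by 0.56 ± 0.10 (adjusted p = 0.012). Between siSirt1 and siCtrl the log2 difference was 0.21 ± 0.12 (adjusted p = 0.31), of which the line 4 pair gave 0.70 and the other 4 pairs -0.01 to 0.16. Acss2 and Acly both supply cytosolic acetyl-CoA, from acetate and from citrate.

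**Figure D4:**
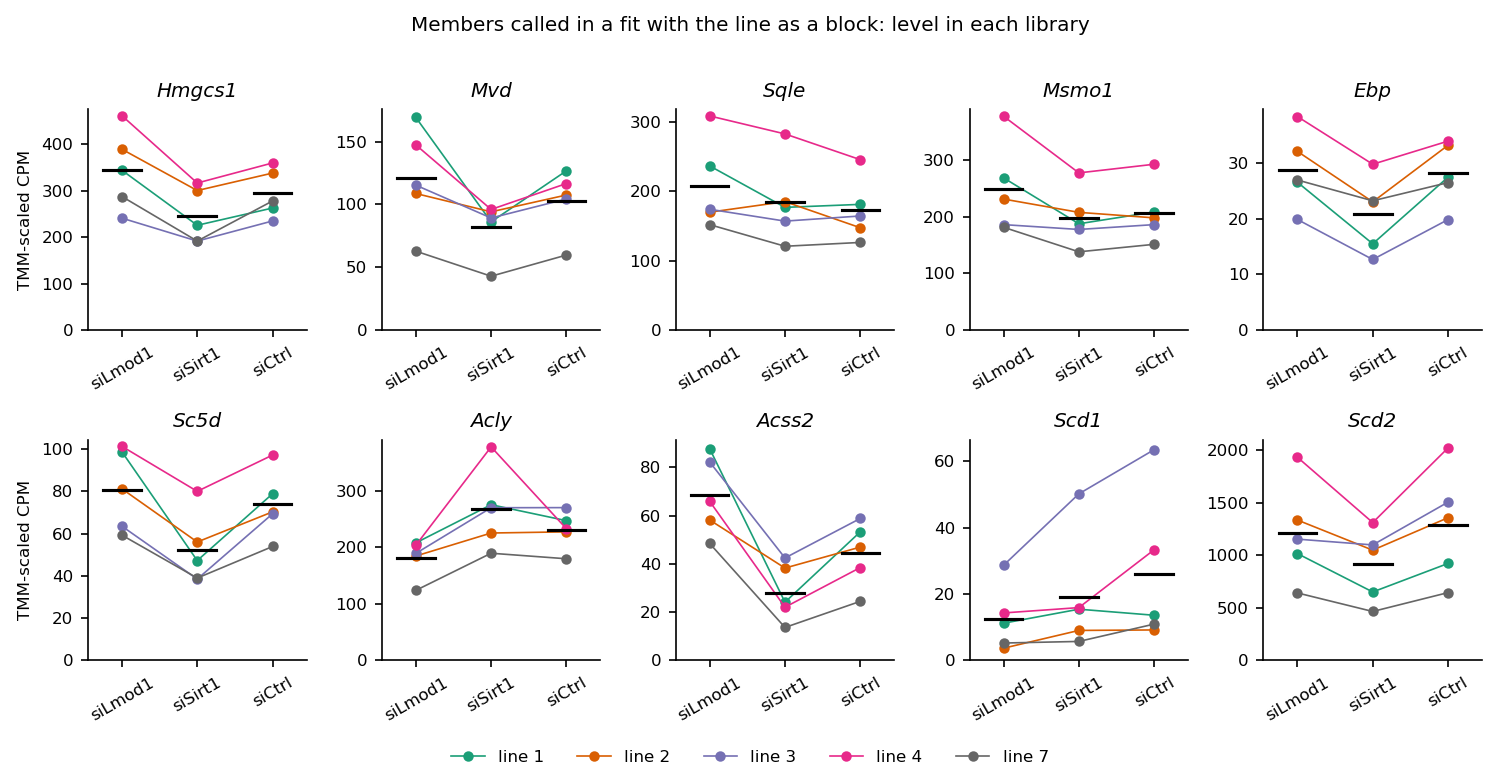
Level of the 10 members called in at least 1 blocked fit, in TMM-scaled CPM, for each library; colours and thin lines join the 3 libraries of a line, and black bars are group means. Acss2 is highest in siLmod1 and lowest in siSirt1 in all 5 lines, and Acly is lowest in siLmod1 in all 5.

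The stearoyl-CoA desaturases, put the first double bond into saturated fatty acids. Scd1 (chromosome 19, 44394455 to 44407879, minus strand) was at 11.2, 3.69, 28.7, 14.3 and 5.25 CPM in siLmod1, at 15.5, 9.05, 50.2, 15.9 and 5.73 CPM in siSirt1 and at 13.6, 9.20, 63.6, 33.4 and 11.0 CPM in siCtrl. Line 3 was highest in each group, and siLmod1 was below siCtrl in every line. Scd1 fell in siLmod1 to a mean 2.07-fold lower than in siCtrl (log2 -1.01 ± 0.13 SE, adjusted p = 0.00048). In siSirt1 its log2 difference from siCtrl was -0.41 ± 0.19 (adjusted p = 0.23), with lines 4 and 7 at -1.07 and -0.94 and line 1 at 0.18. Scd1 in siSirt1 exceeded that in siLmod1 by a log2 difference of 0.58 ± 0.18, which missed the threshold (adjusted p = 0.064).

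Scd2 (chromosome 19, 44293674 to 44306864, plus strand), its neighbour on the chromosome, was at 1017, 1336, 1154, 1933 and 642 CPM in siLmod1, at 651, 1049, 1099, 1311 and 466 CPM in siSirt1 and at 923, 1358, 1506, 2022 and 645 CPM in siCtrl. In every line siSirt1 was lowest, but the groups overlapped because the lines differed. Scd2 fell in siSirt1 by 0.46 ± 0.09 against siCtrl (log2, SE; adjusted p = 0.021) and by 0.40 ± 0.11 against siLmod1 (adjusted p = 0.041). Both calls were lost whichever line was left out, with adjusted p from 0.055 to 0.069 and from 0.053 to 0.13. In siLmod1 against siCtrl the log2 difference was -0.08 ± 0.07 (adjusted p = 0.45).

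The enzymes that commit acetyl-CoA to fatty acids showed no called difference. Fasn averaged 373 ± 74.0 CPM in siLmod1, 405 ± 82.2 CPM in siSirt1 and 394 ± 59.6 CPM in siCtrl (SD, n = 5 each). Acaca, the acetyl-CoA carboxylase of the cytosol, averaged 54.4 ± 4.32, 59.1 ± 14.9 and 58.1 ± 6.19 CPM in siLmod1, siSirt1 and siCtrl. Their blocked log2 differences lay between -0.10 and 0.13 over the 3 comparisons, with adjusted p from 0.25 to 0.94.

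The mevalonate pathway turns acetyl-CoA into the isoprenoid units of sterols. Hmgcs1, the cytosolic HMG-CoA synthase (chromosome 13, 119690379 to 119708260, plus strand), was at 344, 389, 241, 461 and 288 CPM in siLmod1, at 226, 300.3, 192, 317 and 192 CPM in siSirt1 and at 263, 338, 235, 359.7 and 278 CPM in siCtrl. Within each line the order was siLmod1, siCtrl, siSirt1 from high to low, as for Acss2, although the groups overlapped because the lines differed. Hmgcs1 rose in siLmod1 by a log2 difference of 0.20 ± 0.06 SE against siCtrl (adjusted p = 0.029). Without line 1, 2 or 4 that call was lost (highest adjusted p = 0.11). Hmgcs1 was lower in siSirt1 than in siLmod1 by -0.47 ± 0.08 (adjusted p = 0.01), a call kept with each line left out. For siSirt1 against siCtrl it was -0.26 ± 0.08 (adjusted p = 0.11). Of the exon bases of Hmgcs1, 12.1% are shared with Gm48342 on the opposite strand.

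Mvd, the decarboxylase that yields isopentenyl diphosphate (chromosome 8, 122433601 to 122443422, minus strand), was at 169, 109, 115, 147 and 62.9 CPM in siLmod1, at 86.2, 94.1, 89.2, 96.0 and 42.9 CPM in siSirt1 and at 127, 108, 104, 117 and 59.8 CPM in siCtrl. The order within every line again ran from siLmod1 through siCtrl to siSirt1, and line 7 was lowest in each group. Mvd rose in siLmod1 by 0.19 ± 0.06 (log2, SE) against siCtrl (adjusted p = 0.038), and was lower in siSirt1 than in siLmod1 by -0.53 ± 0.11 (adjusted p = 0.02). Both calls were lost without line 1, 3 or 4 (highest adjusted p = 0.14 for the first and 0.054 for the second). Against siCtrl the siSirt1 difference was -0.32 ± 0.09 (adjusted p = 0.064).

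The other 5 genes of this stage passed no threshold with the pairwise block. Pmvk, the phosphomevalonate kinase, averaged 26.8 ± 5.15 CPM in siLmod1, 19.9 ± 5.08 CPM in siSirt1 and 27.7 ± 3.60 CPM in siCtrl (SD, n = 5 each). It was below siCtrl in siSirt1 in 5 of 5 lines (log2 -0.48 ± 0.14 SE, adjusted p = 0.076), with line 1 at -0.96 and line 7 at -0.14. Mvk, the mevalonate kinase, averaged 43.7, 40.2 and 48.1 CPM in siLmod1, siSirt1 and siCtrl, and Fdps, the farnesyl diphosphate synthase, 143, 114 and 135 CPM. For both, siSirt1 was below siCtrl in 5 of 5 lines (log2 -0.25 ± 0.08 and -0.24 ± 0.10; adjusted p = 0.11 and 0.18). Fdps shares 26.7% of its exon bases with Gm43738 on the same strand, so its counts are uncertain. Because the library kit keeps no strand, overlap with a gene on the opposite strand leaves counts uncertain in the same way. Idi1, the isopentenyl diphosphate isomerase, and Acat2, the cytosolic acetoacetyl-CoA thiolase, had log2 differences of 0.20 and 0.10 in siLmod1 against siCtrl. In siSirt1 against siCtrl these were -0.03 and -0.04. Idi1 shares 9.22% of its exon bases with Gm48574 on the opposite strand. Over the 7 genes of the stage, blocked medians were 0.10 for siLmod1 against siCtrl, -0.25 for siSirt1 against siCtrl and -0.34 for siSirt1 against siLmod1, and all 7 were negative in the last pair of comparisons.

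Squalene is made by Fdft1 and turned into lanosterol by Sqle and Lss. Sqle, the squalene epoxidase (chromosome 15, 59315077 to 59331192, plus strand), was at 237, 169.9, 174, 309 and 152 CPM in siLmod1, at 177, 185, 157, 283 and 121 CPM in siSirt1 and at 181, 147, 164, 246 and 126 CPM in siCtrl. It was above siCtrl in siLmod1 in every line, by 0.08 to 0.39 on the log2 scale. Sqle rose in siLmod1 by 0.25 ± 0.05 SE (adjusted p = 0.0053), with adjusted p up to 0.03 when a line was left out. In siSirt1 its log2 difference was 0.10 ± 0.09 from siCtrl (adjusted p = 0.54) and -0.16 ± 0.10 from siLmod1 (adjusted p = 0.28). Fdft1, the squalene synthase, averaged 139 ± 32.9, 138 ± 37.9 and 152 ± 40.6 CPM in siLmod1, siSirt1 and siCtrl, and none of its differences was called; 18.3% of its exon bases lie opposite Ctsb. Lss, the lanosterol synthase, averaged 98.2 ± 20.2, 97.2 ± 12.3 and 92.7 ± 14.9 CPM and was not called either.

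Of the 8 enzymes from lanosterol to cholesterol, Msmo1, Ebp and Sc5d carried the calls. Msmo1, the methylsterol monooxygenase (chromosome 8, 64718139 to 64733792, minus strand), was at 268, 231, 186, 377 and 181 CPM in siLmod1, at 187, 208, 177, 277 and 138 CPM in siSirt1 and at 208, 198, 186, 292 and 151 CPM in siCtrl. It rose in siLmod1 by 0.24 ± 0.06 (log2, SE; adjusted p = 0.011), with 4 lines between 0.22 and 0.37 and line 3 at 0.00. Without line 1 its adjusted p was 0.053. In siSirt1 it stood below siLmod1 in 5 of 5 lines, which missed the threshold (log2 -0.30 ± 0.09, adjusted p = 0.062).

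Sc5d, which sets the double bond of the B ring in the precursor of 7-dehydrocholesterol (chromosome 9, 42251595 to 42264256, minus strand), was at 98.8, 81.3, 63.6, 101 and 59.3 CPM in siLmod1, at 47.3, 56.1, 38.5, 80.1 and 39.0 CPM in siSirt1 and at 78.9, 70.4, 69.5, 97.2 and 54.0 CPM in siCtrl. The siSirt1 library was the lowest of each line. Sc5d fell in siSirt1 by 0.51 ± 0.11 (log2, SE) against siCtrl (adjusted p = 0.033), a call lost without line 1, 2, 3 or 7 (highest adjusted p = 0.094). It was lower in siSirt1 than in siLmod1 by -0.63 ± 0.11 (adjusted p = 0.01), a call kept with each line left out. In siLmod1 against siCtrl its log2 difference was 0.11 ± 0.06 (adjusted p = 0.21).

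Ebp, the sterol isomerase that acts just before Sc5d (chromosome X, 8185329 to 8193512, minus strand), was at 26.5, 32.1, 19.8, 38.3 and 26.9 CPM in siLmod1, at 15.5, 23.0, 12.7, 29.8 and 23.2 CPM in siSirt1 and at 27.4, 33.2, 19.8, 33.9 and 26.5 CPM in siCtrl. Its siSirt1 library too was lowest in every line, and line 3 was the lowest line of each group. Ebp was lower in siSirt1 than in siLmod1 by -0.48 ± 0.11 (log2, SE; adjusted p = 0.025), a call that held without line 7 only (highest adjusted p = 0.091). Against siCtrl its siSirt1 difference was -0.45 ± 0.12 (adjusted p = 0.07). The 5 remaining enzymes were not called: Cyp51, the lanosterol demethylase, averaged 360.5 ± 90.1, 289.8 ± 101 and 332 ± 78.8 CPM in siLmod1, siSirt1 and siCtrl. Hsd17b7, the 3-ketosteroid reductase, was the 1 enzyme of this stage with a positive blocked difference in siSirt1 against siCtrl (log2 0.24 ± 0.08, adjusted p = 0.12). Tm7sf2, Nsdhl and Dhcr7 are the sterol reductases and the dehydrogenase of the stage. They had log2 differences of -0.24 ± 0.13, -0.11 ± 0.12 and -0.23 ± 0.13 there (adjusted p = 0.29 to 0.63). Tm7sf2 shares 12.1% of its exon bases with Vps51 on the same strand, so its counts are uncertain too.

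**Figure D5:**
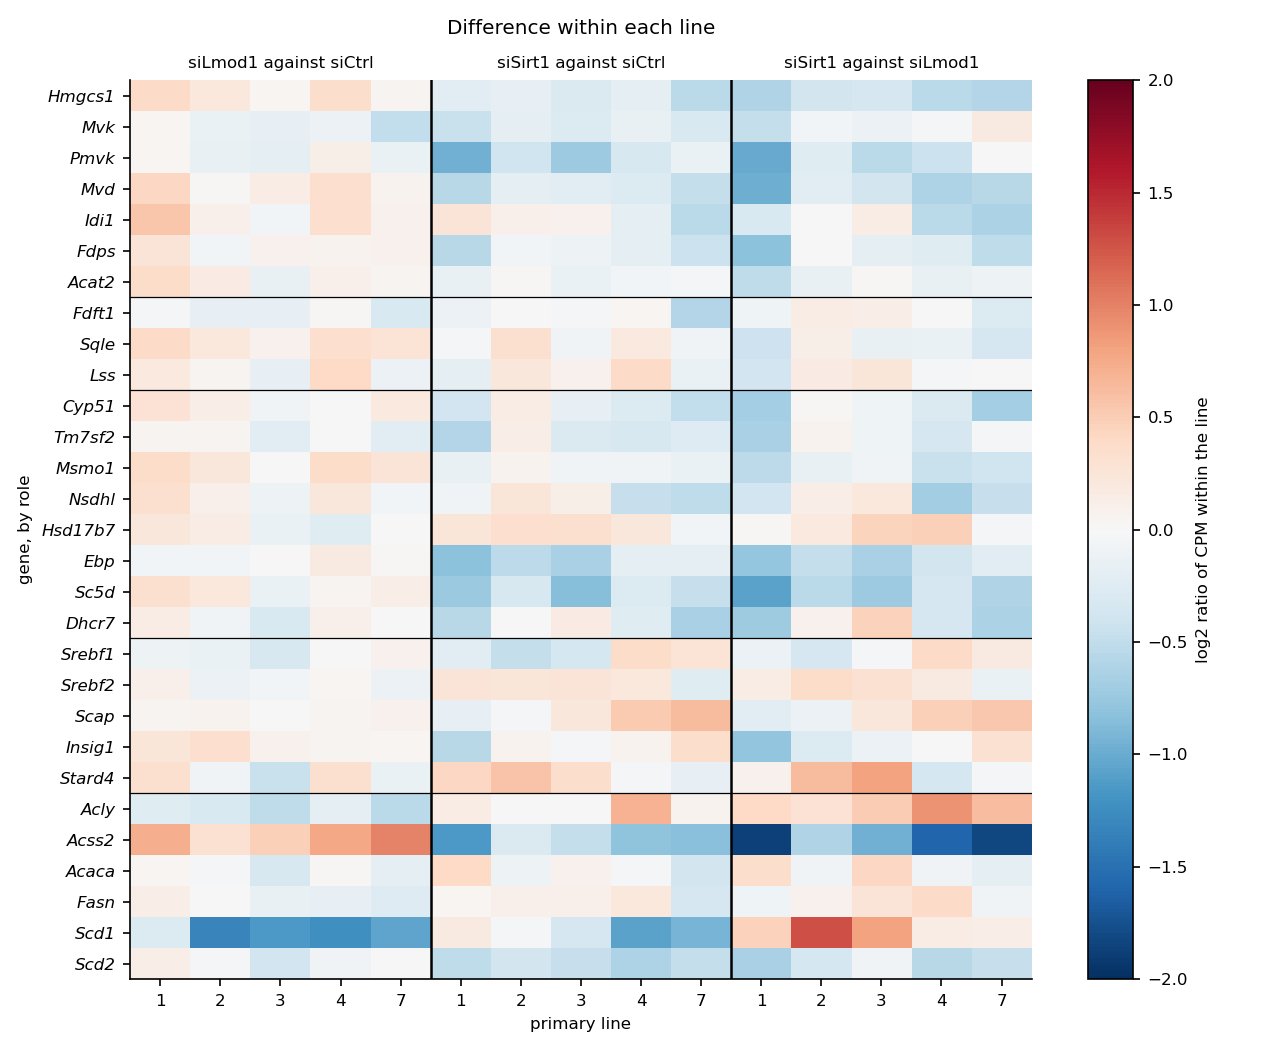
Log2 ratio of CPM between groups within each of the 5 lines, for the 29 genes grouped by role, from mevalonate enzymes at the top to acetyl-CoA and fatty acid genes at the bottom. The Acss2 row is positive in all 5 lines for siLmod1 against siCtrl and negative in all 5 in the other comparisons.

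Lines differed in how the sterol enzymes moved. For siLmod1 against siCtrl the median log2 ratio of the 18 enzymes was 0.28 in line 1, 0.08 in line 2, -0.11 in line 3, 0.11 in line 4 and 0.04 in line 7. For siSirt1 against siCtrl it was -0.30, 0.02, -0.12, -0.19 and -0.37 in the same lines. In line 7 of siSirt1 all 18 were below siCtrl, and in line 2, 8 were. Line 1, whose siSirt1 library lay among line 3 on the third component, gave the lowest median for siSirt1 against siLmod1, at -0.56, against 0.00 in line 2 and -0.09 in line 3.

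The regulators of the pathway were not called in any pairwise blocked fit. Srebf2, the SREBP gene that mainly drives sterol synthesis, averaged 360.3 ± 36.5 CPM in siLmod1, 409 ± 64.8 CPM in siSirt1 and 369 ± 46.5 CPM in siCtrl (SD, n = 5 each). Its log2 difference in siSirt1 against siCtrl was 0.17 ± 0.10 (adjusted p = 0.31), with 4 lines at 0.21 to 0.26 and line 7 at -0.24. Srebf1, the gene of the SREBPs tied mainly to fatty acid synthesis, averaged 68.8 ± 13.2, 69.2 ± 12.0 and 75.0 ± 22.7 CPM in siLmod1, siSirt1 and siCtrl. Scap, which escorts SREBPs to the Golgi, averaged 58.2 ± 8.01, 67.0 ± 15.6 and 56.0 ± 7.51 CPM. Its siSirt1 difference was 0.53 and 0.63 in lines 4 and 7 and -0.16 in line 1, and 13.2% of its exon bases lie opposite 5830462I19Rik.

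Insig1, which retains Scap in the endoplasmic reticulum and is itself a target of SREBPs, was at 234, 206, 163, 319.6 and 169.8 CPM in siLmod1, at 135, 169.6, 149.7, 320.5 and 211 CPM in siSirt1 and at 198, 162, 153, 307 and 165 CPM in siCtrl. It was above siCtrl in siLmod1 in 5 of 5 lines, by 0.04 to 0.34 (blocked log2 0.15 ± 0.06 SE, adjusted p = 0.075). In siSirt1 the lines ran from -0.56 in line 1 to 0.35 in line 7, with a blocked difference of 0.00 ± 0.13. Stard4, a carrier of cholesterol between membranes, averaged 42.5 ± 7.09, 50.4 ± 11.5 and 42.2 ± 3.53 CPM in siLmod1, siSirt1 and siCtrl. Its siSirt1 difference was 0.35 to 0.57 in lines 1, 2 and 3, -0.03 in line 4 and -0.17 in line 7 (blocked log2 0.25 ± 0.12, adjusted p = 0.23).

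A wider list of 48 sterol and fatty acid genes held 39 that could be tested for siLmod1 against siCtrl and 38 in each of the other comparisons. With the block, siLmod1 had 9 higher and 10 lower than siCtrl of the 39 (edgeR adjusted p from 6.5e-05 to 0.042), against 12.9% and 16.5% of all genes tested. Without the block edgeR called 0 and DESeq2 called 1, Erlin2, with the share of all genes called by DESeq2 not counted. In that edgeR fit 5 had an unadjusted p under 0.05, as did 1351 of all 15022 genes tested. Among the lower genes were Insig2 (-0.41), the second Insig gene, at 35.1 ± 7.47 CPM in siLmod1 and 46.4 ± 10.9 CPM in siCtrl (SD, n = 5 each), and Mbtps1 (-0.16), the first protease to cut SREBPs. The desaturases Fads1 (-0.49) and Fads2 (-0.55), the elongase Elovl5 (-0.22), the lipogenic regulator Mid1ip1 (-0.34) and the sterol carrier Npc2 (-0.21) were lower as well. Among the higher genes were Erlin1 (0.58) and Erlin2 (0.51), which serve in the degradation of proteins of the endoplasmic reticulum, and Ggps1 (0.35), the geranylgeranyl diphosphate synthase. Mylip (0.32), a ubiquitin ligase under LXR control, Me1 (0.28), the malic enzyme that supplies NADPH, Acsl3 (0.28), a fatty acyl-CoA ligase, Mlxip (0.19) and Nr1h2 (0.16), an LXR gene, were higher too. Mbtps1, Npc2, Elovl5, Mylip, Mlxip and Nr1h2 each lost the call without line 3 and also without line 7. All of these but Npc2 lost it without line 1 too, and Elovl5 and Mylip also without line 4.

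In siSirt1 against siCtrl the block gave 1 higher gene of this list, Lbr (log2 0.42), a sterol reductase of the nuclear envelope, and 2 lower, Me1 (-0.52) and Acsl3 (-0.78), with edgeR adjusted p from 0.019 to 0.046. These counts of 38 stand near the 2.72% and 4.35% of all genes tested. Lbr lost its call whichever line was left out, Me1 lost it without line 1, 2, 3 or 4, and Acsl3 without line 3 or 4. Without the block edgeR called 0, and DESeq2 called 0. In that edgeR fit 3 had an unadjusted p under 0.05, as did 1440 of all 14912 genes tested. Between siSirt1 and siLmod1 the block gave 2 higher and 6 lower of 38, against 7.43% and 8.43% of all genes tested. Insig2 (0.34) was among the higher, and Erlin2 (-0.79), Npc1 (-0.53), Elovl1 (-0.52), Me1 (-0.81) and Acsl3 (-1.08) among the lower. Erlin2, Elovl1, Me1 and Acsl3 kept their calls with each line left out, Npc1 lost it without line 1, 2 or 3, and Insig2 lost it whichever line was left out. Npc1 exports cholesterol from lysosomes, and Elovl1 elongates saturated fatty acids. Without the block edgeR called 1 gene, Erlin2 (-0.76, adjusted p = 0.04), and DESeq2 called 3, Erlin2, Elovl1 and Acsl3. Erlin2 stood at 54.8 ± 12.6 CPM in siSirt1 and 93.8 ± 6.02 CPM in siLmod1. Abca1, the cholesterol exporter under LXR control, was near 1 CPM (0.80 to 1.05 CPM in the group means), and Elovl6, which elongates palmitate, averaged 29.2, 33.1 and 31.3 CPM in siLmod1, siSirt1 and siCtrl; neither was called.

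The comparisons of each knockdown with siCtrl share their 5 control libraries, so their values stand side by side and are not independent. In bulk RNA, fewer cells of a type and less RNA per cell cannot be told apart. Markers moved in part with the groups. Of the 8 muscle markers, 3 were lower in siLmod1 than in siCtrl with the block, Myog (-0.50), Pax7 (-0.79) and Mymk (-0.36), and 0 higher, while 3 of the 8 had a positive difference. In siSirt1 against siCtrl, Mymk (-0.54) and Acta1 (-0.88) were lower and 0 higher, and 2 were positive, Pax7 (0.34, not called) and Myod1 (0.13, not called). Of the 5 mural markers tested, Rgs5 (-1.09), Cspg4 (-0.72) and Abcc9 (-1.18) were lower in siLmod1, and Abcc9 (-1.31) and Acta2 (-0.82) were lower in siSirt1. Of the 5 fibroblast markers tested, Col1a1 (-2.49) and Col1a2 (-0.69) were lower in siLmod1, and Dcn (1.85) was higher in siSirt1. Of the 2 adipocyte markers tested, Pparg was higher with the block in siLmod1 (0.92) and in siSirt1 (1.57) than in siCtrl. Cebpa was not called, at 0.11 in siLmod1 and -0.20 in siSirt1, and the whole adipocyte list summed to at most 9.74 CPM in a library. Of the 6 marker calls in siSirt1 against siCtrl, 0 held without line 1 and 4 held without line 7. Of the 9 in siLmod1 against siCtrl, Pparg, Col1a1 and Cspg4 were lost without line 3 and the last 2 also without line 1 or 2, while Pparg was also lost without line 7. The part of these shifts in the values above was not tested.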

How the data were processed

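RNA was taken from 15 cultures of primary myoblasts with TriFast, and polyadenylated libraries were made with the TruSeq v2 kit, which keeps no strand, and read at 150 bases, per the labels' protocols. For each pair of groups, raw counts by Ensembl gene and TPM values were deposited. The authors deposited the counts without normalization, and the deposited TPM values are scaled by transcript length and library by the authors. The submitters' processing notes name DESeq2 and build mm10; aligner and counter: not given in the sources used here. A library's values were identical in the tables that hold it (15 of 15 libraries, counts and TPM). IDs were paired with symbols and coordinates from GENCODE M21 on the same build, with a symbol for 48970 of 49315.

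Counts were filtered with filterByExpr and scaled by TMM, and edgeR 4.0.16 (R 4.3.3) fitted the quasi-likelihood F test to the 10 libraries of each comparison with group as the term. Benjamini-Hochberg adjusted p-values run over all genes tested, and a gene was called under 0.05 with no minimum fold. A fit with the line as a block was listed as an alternative. After removal of group means, libraries with 1 number correlated between groups at 0.279 to 0.89 (median 0.716, 15 pairs, 15642 genes), and those of different numbers at -0.519 to 0.267 (median -0.134, 60 pairs). The design text names 5 cell lines, the labels only number the replicates, and each number is taken here as 1 line. Differences printed for single genes are therefore from the blocked fit unless stated, whether or not the block changes the call. Same-line correlation was lowest for the siSirt1 library of line 1 (0.279 with siCtrl and 0.304 with siLmod1). That library correlated nearly as well with line 3, at 0.267 with its siCtrl library and 0.205 with its siLmod1 library. Its pairing with line 1 is therefore the least clear. Residual degrees of freedom were 8 without and 4 with the block. Each line gave 1 library per group, under 1 transfection each. Without the block, p-values set the difference between groups against the spread of libraries within a group. With the block, they set it against how much that difference varied between these 5 lines.

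Values per library are CPM on TMM-scaled library sizes. TPM was used for levels between genes alone, since limma 3.58.1 on log2(TPM + 1) put the median of all genes at 0.12 for siSirt1 against siCtrl, where edgeR put it at 0.02. DESeq2 1.42.0, RLE scaling, no filter, all 15 libraries and left-out libraries or lines were further alternatives. Both edgeR fits were also run on simulated counts drawn without differences between lines. That run does not show how either fit handles the spread between lines. The 29 genes, the wider list and the markers (muscle, adipocyte, fibroblast, mural, endothelial, leukocyte and Schwann cells) were chosen with earlier results of these data known. Genes named were the 29, the targeted genes, 8 fixed genes of the wider list and any of it called with or without the block. Results for some genes of the wider list are not reported here. The deposited normalized counts were not used. Python 3.11.15, pandas 2.3.3 and matplotlib 3.10.9 were used for tables and figures.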

Additional observations from a re-analysis of the deposited data

Results flagged for a closer look

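A library lay far from the other 4 of its group in 5 of the 87 groups of 5 values examined (29 genes in 3 groups). Chance alone marks about 1 group in 20. Mvd was at 42.9 CPM in the siSirt1 library of line 7, against 86.2 to 96.0 CPM in the other siSirt1 libraries. Lss was at 76.2 CPM in the same library, against 99.6 to 108 CPM in the others. Acly was at 124 CPM in the siLmod1 library of line 7, against 184 to 208 CPM in the other siLmod1 libraries. Scd1 was at 50.2 CPM in the siSirt1 library of line 3, against 5.73 to 15.9 CPM. Stard4 was at 48.4 CPM in the siCtrl library of line 3, against 39.8 to 41.7 CPM.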

How the results depend on the processing

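In the pairwise edgeR fits without a block, the counts of called members were 0 in each direction and comparison, and the replicate block moved them in each comparison. It gave 5 higher and 2 lower for siLmod1 against siCtrl, 3 lower for siSirt1 against siCtrl, and 1 higher and 6 lower for siSirt1 against siLmod1. With the block on all 15 libraries these counts were 1 higher and 2 lower, 7 lower, and 2 higher and 10 lower. The share of all genes called in that fit was not counted, so these counts are not read against a background. For siSirt1 against siLmod1, the fit of all 15 libraries without a block and DESeq2 each called 1 lower. Leaving out a line from the blocked fits (an alternative added after the data were seen) gave 2 to 5 higher for siLmod1 against siCtrl. It gave 0 to 1 lower for siSirt1 against siCtrl and 3 to 5 lower for siSirt1 against siLmod1. The share of all genes called was not counted in these fits, in DESeq2 or in the unblocked fit of all 15 libraries. The members' median for siSirt1 against siCtrl was -0.09 without a block, beside 0.019 over all genes. With limma on log2(TPM + 1) the members' median was 0.026, beside 0.116 over all genes. With a library left out the members' median was -0.219 to -0.052, moving past its own spread without the siSirt1 library of line 2. Of 1914 member values recomputed, 121 changed sign with neither value called (9 under limma on TPM), 0 changed sign with a call, and 96 were called in the alternative alone; the causes were not tested. Depth does not limit most members, but Tm7sf2, at 7.86 to 25.1 CPM, and Scd1, at 3.69 to 63.6 CPM, rest on the fewest reads.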
